A study of Mus musculus with 6 samples.

Results

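Enzymes that handle alcohols, aldehydes, esters, epoxides and small nitrogen or sulfur compounds were followed in the olfactory epithelium of mice with and without the ion transporter NKCC1. The set holds every gene of the expression table whose symbol begins with Adh, Aldh, Aox, Ces, Fmo, Ephx or Cbr followed by a number. Its members were taken by symbol alone, but the families were chosen with earlier results of these data known. There were 63 such genes among 21881 symbols: 6 alcohol dehydrogenases (Adh), 20 aldehyde dehydrogenases (Aldh), 4 aldehyde oxidases (Aox), 18 carboxylesterases (Ces), 7 flavin-containing monooxygenases (Fmo), 4 epoxide hydrolases (Ephx) and 4 carbonyl reductases (Cbr). Of these, 43 reached a mean of 0.5 FPKM over the 6 libraries and were tested, and 20 did not. FPKM divides the fragments of a gene by its transcript length and by the depth of the library, so levels of different genes are compared per length.

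The tissue was adult olfactory epithelium of NMRI mice, either NKCC1+/+ (wild type, WT) or NKCC1-/- (knockout, KO). NKCC1, encoded by Slc12a2, carries sodium, potassium and chloride into cells together, and the series asks about its part in the formation of olfactory neurons. Each genotype had 3 pooled libraries: a mixed pool of 2 epithelia from each sex, a male pool of 3 mice and a female pool of 3 mice. All libraries were treated with duplex-specific nuclease, which digests abundant double strands and so compresses the levels of abundant transcripts. The sources used here do not state the knockout allele, the exact ages or whether an animal entered more than 1 pool. A p-value therefore reflects how pools, rather than single mice, varied.

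Depth estimated from the smallest values was about 3840000 fragments in the WT and 3970000 in the KO mixed pool and 11200000 to 14300000 in the others, so low values are coarser in the mixed pools. Slc12a2 was at 83.3, 40.2 and 36.0 FPKM in the mixed, male and female WT pools and at 28.0, 16.1 and 18.0 FPKM in the KO pools, with an adjusted p of 0.11 (limma). Values are given below in the order mixed, male, female. The share of all FPKM taken by the 10 most abundant genes was 15.5, 16.4 and 45.7% in WT and 33.5, 34.4 and 16.9% in KO. The WT female pool thus stood apart from the other WT pools, and the KO female pool from the other KO pools, in the opposite direction. Markers of mature neurons and of sustentacular cells (the supporting cells of this epithelium) were above 1 FPKM for 14 of 14 and 12 of 12 genes on average. In bulk tissue, fewer cells of a type and less RNA per cell cannot be told apart.

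These families make up much of the first, functionalizing step of foreign-compound metabolism. Alcohol dehydrogenases oxidize alcohols to aldehydes, and aldehyde dehydrogenases and aldehyde oxidases carry aldehydes on to acids, the former with NAD(P)+ and the latter with molybdenum and flavin cofactors. Carboxylesterases split esters, flavin-containing monooxygenases add oxygen to nitrogen and sulfur atoms, epoxide hydrolases open epoxides to diols, and carbonyl reductases turn aldehydes and ketones into alcohols. In the nose such enzymes are found mainly in sustentacular cells and in Bowman's glands, where they are thought to clear odorants and inhaled chemicals. Some also make or use retinoic acid, since retinol and retinal are an alcohol and an aldehyde.

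Members were spread over a wide range of levels. By mean over the 6 libraries, 7 lay at or above 100 FPKM, 25 between 10 and 100, 8 between 1 and 10 and 3 between 0.5 and 1. The carbonyl reductase Cbr2, known in mice as an abundant enzyme of lung airway cells, ranked 19 among all genes and made up 51.4% of the members' summed FPKM. It was at 2719, 3188 and 1929.8 FPKM in the mixed, male and female WT pools and at 1984, 2571 and 3732 FPKM in the KO pools. The lowest Cbr2 value was thus the WT female pool and the highest the KO female pool, and the genotypes overlapped. Each family was led by 1 gene: Adh1 held 64.9% of the Adh sum, Aldh2 46.7% of the Aldh sum, Aox3l1 82.1% of the Aox sum, Ces1d 78.7% of the Ces sum, Fmo6 53.2% of the Fmo sum, Ephx1 83.9% of the Ephx sum and Cbr2 96.7% of the Cbr sum.

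**Figure D1:**
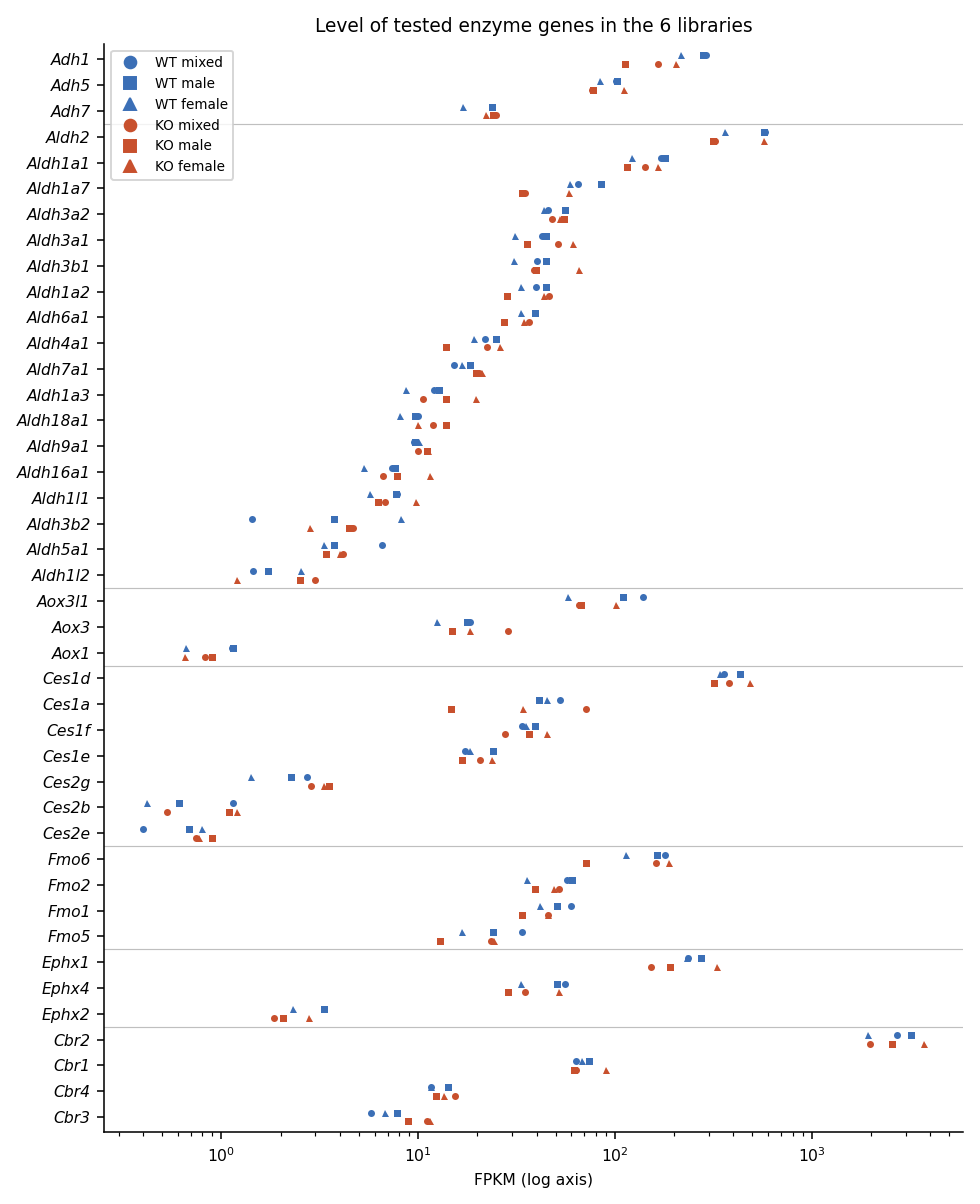
FPKM of 42 of the 43 tested members on a log axis, grouped by family, with 1 point for each library (3 WT and 3 KO). Levels run from under 1 FPKM to 3732 FPKM for Cbr2, and for most genes the WT and KO points overlap.

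Many members lie side by side in the genome, and neighbours differed widely in level. In the run of alcohol dehydrogenase genes Adh7, Adh1, Adh6a, Adh4 and Adh5, mean levels ran from 0.011 FPKM for Adh4 and Adh6a to 212 FPKM for Adh1. Among the 4 neighbouring aldehyde oxidases, Aox3l1 (now named Aox2, and known in mice as the aldehyde oxidase of nasal mucosa) was at a mean of 90.03 FPKM and Aox4 at 0.41 FPKM. Within the Ces1 run, which includes Ces5a, means ran from 0.031 FPKM for Ces1c to 386 FPKM for Ces1d, while the neighbouring Ces2, Ces3 and Ces4 genes reached no more than 2.68 FPKM, for Ces2g. The Fmo run went from 0.31 FPKM for Fmo4 to 147 FPKM for Fmo6.

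Of the 20 members under the level filter, 5 were listed at 0 in all 6 libraries: Adh6-ps1, Ces2a, Ces3b, Ces4a and Fmo9. Such a value can also arise where the program that made the table failed to estimate a gene. The other 15 had a value above 0 in at least 1 library, and the highest mean among them was that of Aox4. Carboxylesterases made up the largest group, with 11 of 18 members under the filter. These genes were Ces1b, Ces1c, Ces1g, Ces2a, Ces2c, Ces2d-ps, Ces2f, Ces3a, Ces3b, Ces4a and Ces5a.

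The pair Aldh1a1 and Aldh1a7 was compared in sequence as an example of close relatives. Aldh1a1 makes retinoic acid from retinal, and Aldh1a7 is its near copy in rodents. Aligned over 1503 coding bases in the GENCODE annotation of GRCm38, the genes were identical at 1377 bases (91.6%) and differed at 126. None of the 1403 stretches of 101 bases (the read length) in either coding part occurs unchanged in an annotated transcript of another gene. Matches with mismatches were not counted. The 60 coding bases with the most differences, positions 317 to 376 counted from the first coding base, show how densely they can lie (capitals mark the 16 differing bases):
Aldh1a1: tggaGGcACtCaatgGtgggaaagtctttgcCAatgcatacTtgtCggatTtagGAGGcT
Aldh1a7: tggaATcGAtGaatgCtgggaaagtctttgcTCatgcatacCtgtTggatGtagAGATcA

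Directly upstream of the start site the pair were identical at 96.7% of 90 bases. A window this short cannot be set against the 91.6% of the whole coding part. Coding bases 121 to 180, the 60 with the fewest differences, differed at 0 bases. Identity further upstream was not counted. The 90 bases directly before each start differed at 3 bases (capitals) and were identical at 87, in RefSeq's promoter windows of build GRCm38.p6. For Aldh1a1 the window lies before the second start site listed there, and the first was not used. The Aldh1a1 window is chr19:20601878-20601967 on the plus strand, and the Aldh1a7 window is chr19:20727557-20727646 on the minus strand:
Aldh1a1: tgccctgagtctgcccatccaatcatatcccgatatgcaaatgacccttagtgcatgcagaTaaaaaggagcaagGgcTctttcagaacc
Aldh1a7: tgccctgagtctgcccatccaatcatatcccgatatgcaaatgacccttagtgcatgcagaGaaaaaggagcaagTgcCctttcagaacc

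Both windows hold the letters CCAAT and ATGCAAAT, the cores of the CCAAT box and of the octamer that POU-domain factors bind. Searched on both strands of the 250 bases before a start, CCAAT was found for 37.5% of 27025 genes and for 17 of the 31 tested members with a window. ATGCAAAT was found for 1.81% of genes and for 3 of those 31 members, namely Aldh1a1, Aldh1a2 and Aldh1a7. TATAAA, the core of the TATA box, was found for 14.3% of genes and for 5 of the 31 members. The motifs do not overlap in these letters, and a match is a description of the sequence, not a binding site.

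Other relatives were less alike. Coding identity was 80.3% for Ces1d and Ces1e, 78.2% for Ces1a and Ces1d, 77.1% for Cbr1 and Cbr3, 68.7% for Adh1 and Adh7 and 68.0% for Aox3l1 and Aox3. Stretches of 101 coding bases shared with another gene exceeded 10% for 3 tested members: Aldh4a1 (86.9%, shared with Gm21969), Aldh3b2 (21.2%, shared with Aldh3b3) and Cbr2 (11.1%, shared with Gm11771). The values of these 3 genes are uncertain to the extent that shared fragments were divided between genes or counted to the wrong one. The symbol Aldh3b3 is not in the expression table, so how its fragments were counted is not known. Sharing was computed on GRCm38, while the deposited values were made on mm9.

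The loss of NKCC1 was compared with wild type by limma on log2(FPKM + 1), adjusted over all 15067 tested genes. None of the 43 tested members passed an adjusted p of 0.05, against 126 of all tested genes (0.836%), of which 0.212% were higher and 0.624% lower in the KO. At an unadjusted p of 0.05, 3 of 43 members (6.98%) were past the threshold, against 8.88% of all genes. Adh1 and Aldh1a7 were lower in the KO (background 4.62%) and Cbr3 higher (background 4.26%). The count of 3 became 0 without the WT male or without the KO male pool. Log2 differences were negative for 21 members and positive for 22, with a median of 0.03 beside 0.01 over all genes. The middle 90% of the members' differences ran from -0.46 to 0.34, and that of all genes from -0.60 to 0.56. The members' counts and median thus lay near those of all genes.

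In 5 of 43 members (11.6%) the values of the genotypes did not overlap, against 12.7% of all genes. All KO libraries were below all WT libraries for Adh1 and Aldh1a7 (background 5.24%), and above them for Cbr3, Ces2g and Aldh7a1 (background 7.46%). These shares are near the background. The 5 genes are described below one by one.

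**Figure D2:**
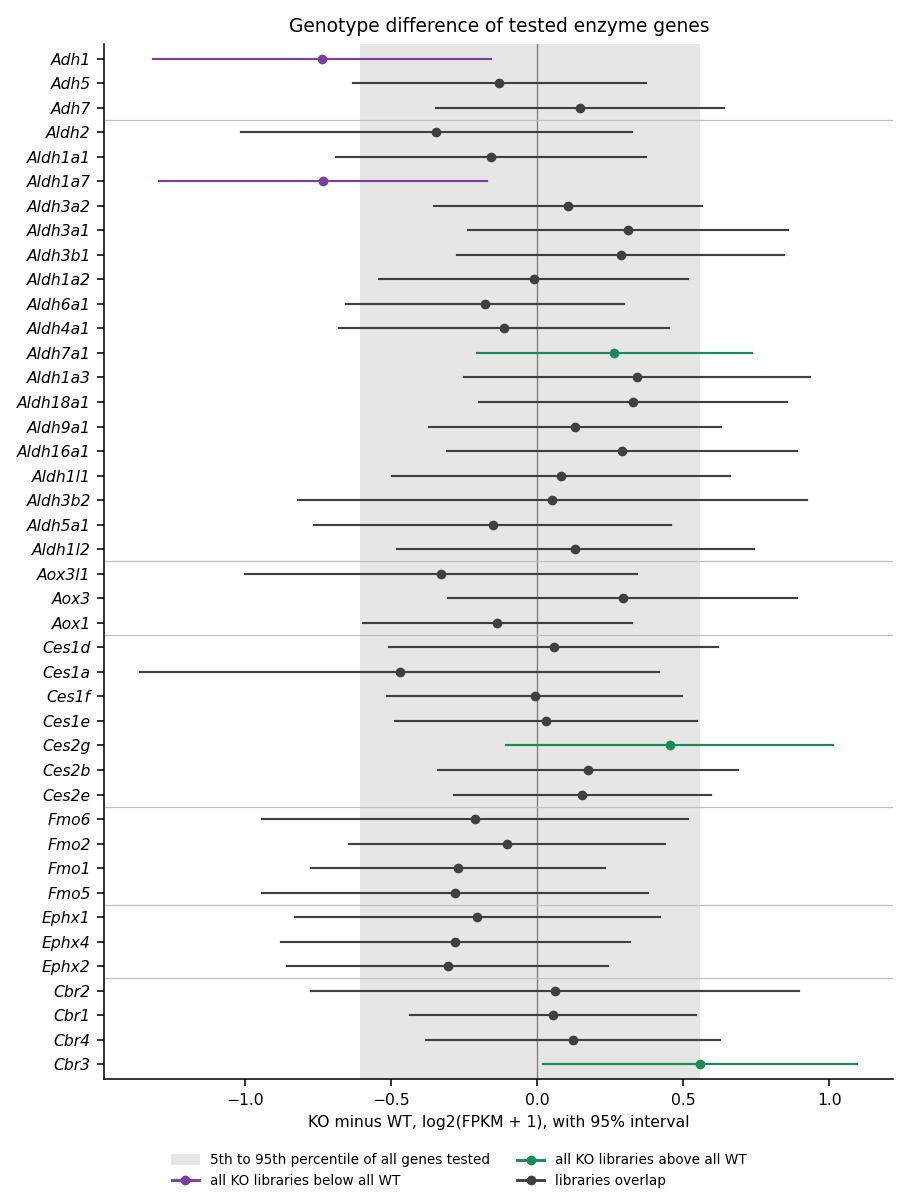
Log2 difference KO minus WT on the log2(FPKM + 1) scale for 42 of the 43 tested members with 95% intervals from limma (3 pools a genotype). Differences run from -0.74 for Adh1 to 0.56 for Cbr3, and none passed an adjusted p of 0.05.

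Adh1, the class I alcohol dehydrogenase that oxidizes ethanol and retinol, had the largest negative difference of the members. Its FPKM was 291 (mixed), 281 (male) and 217 (female) in WT, and 165, 113 and 204 in KO in the same order. Every KO value was below every WT value, but the KO female pool was close to the WT female pool. The WT mean was 263 ± 40.3 FPKM and the KO mean 161 ± 46.1 (SD, n = 3 pools each), a log2 difference of -0.74 ± 0.27 (SE; 95% interval -1.31 to -0.16) with a limma adjusted p of 0.34. Set against the WT pool of the same kind, the KO level was 56.8% (mixed), 40.1% (male) and 94.2% (female). The difference ran from -0.93 to -0.50 when each library was left out in turn.

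The neighbouring alcohol dehydrogenases differed less. Adh5, the glutathione-dependent formaldehyde dehydrogenase found in most tissues, was at 101, 103 and 83.7 FPKM in the WT pools and at 76.5, 77.5 and 112 FPKM in the KO pools, so the genotypes overlapped. Adh7, the class IV enzyme of epithelia that also oxidizes retinol, was at 23.8, 23.8 and 16.9 FPKM in WT and at 24.8, 24.1 and 22.1 FPKM in KO. Adh7 was nearly level except in the WT female pool. The ratio of Adh1 to Adh5 within a library was 289, 273 and 259% in WT and 216, 145 and 183% in KO, without overlap. This ratio and those that follow were chosen after the values were seen, and they have no test.

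Aldh1a7 was the other tested member with every KO value below every WT value. It was at 65.0, 85.0 and 59.2 FPKM in the mixed, male and female WT pools and at 34.9, 33.9 and 58.3 FPKM in the KO pools. As for Adh1, the KO female value lay just under the lowest WT value. Means were 69.7 ± 13.5 FPKM (WT) and 42.4 ± 13.8 (KO; SD, n = 3 pools each), a log2 difference of -0.73 ± 0.26 (SE; 95% interval -1.29 to -0.17) with a limma adjusted p of 0.32. The KO level was 53.7, 39.9 and 98.5% of its WT counterpart.

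Its near copy Aldh1a1 was at 171, 179 and 123 FPKM in WT and at 142, 115 and 166 FPKM in KO, with overlap and a log2 difference of -0.16 ± 0.25 (SE). Within each library, Aldh1a7 was 37.9, 47.5 and 48.2% of Aldh1a1 in the WT pools and 24.5, 29.6 and 35.2% in the KO pools. That ratio averaged 44.6 ± 5.76% over the WT pools and 29.8 ± 5.34% over the KO pools (SD, n = 3), with every KO value below every WT value. The pair, which share most of their upstream 90 bases printed above, thus stood at a lower ratio in each KO library.

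**Figure D3:**
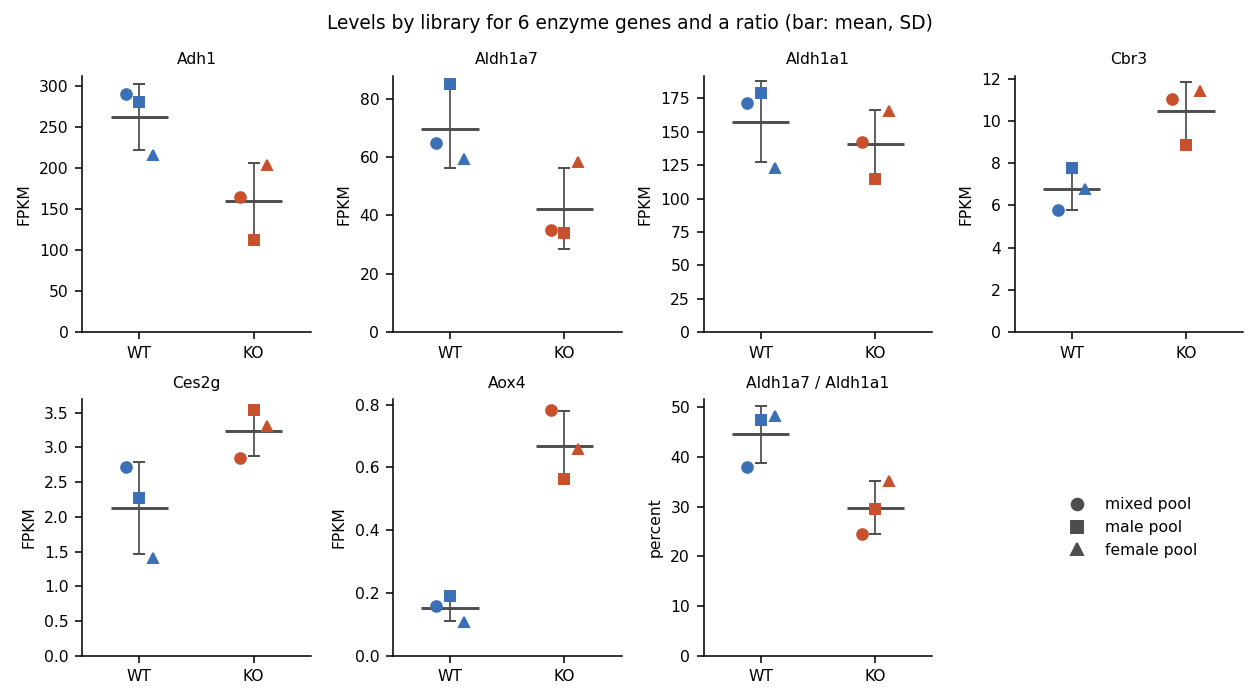
FPKM in each library (WT in blue, KO in red; circle mixed, square male and triangle female pool) for 6 members, with the mean and SD of the 3 pools as bars, and the ratio of Aldh1a7 to Aldh1a1 in percent. All KO points are below all WT points for Adh1, Aldh1a7 and the ratio and above them for Cbr3, Ces2g and Aox4, while those of Aldh1a1 overlap.

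Among the other retinal dehydrogenases, Aldh1a2 was at 33.3 to 44.4 FPKM in WT and 28.4 to 46.2 FPKM in KO, and Aldh1a3 at 8.69 to 12.8 FPKM in WT and 10.6 to 19.6 FPKM in KO. Both overlapped between genotypes. Aldh2, the mitochondrial enzyme that clears acetaldehyde, was at 576, 571 and 362 FPKM in the mixed, male and female WT pools and at 323, 314 and 572 FPKM in the KO pools. The mixed and male pools thus differed in one direction and the female pools in the other, and the log2 difference over all pools was -0.34 ± 0.31 (SE). Aldh3a2, the fatty aldehyde dehydrogenase, was at 43.5 to 55.4 FPKM in WT and 47.8 to 55.2 FPKM in KO. Its highest value was 1.27 times its lowest, one of the smallest spreads among the members. Only Aldh9a1, which acts on aminobutyraldehydes, had a smaller spread among the tested members, at 1.18 times.

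Several aldehyde dehydrogenases serve amino acid and folate metabolism rather than foreign compounds. Aldh7a1, an enzyme of lysine breakdown, was at 15.3, 18.4 and 16.7 FPKM in WT and at 20.3, 19.7 and 21.1 FPKM in KO. All KO values were higher, by a log2 difference of 0.26 with an unadjusted p of 0.25 (limma), a size that the fit did not separate from the spread. Aldh18a1 (proline synthesis) was at 8.04 to 10.03 FPKM in WT and 9.96 to 13.8 FPKM in KO, and Aldh4a1 (proline breakdown) at 19.2 to 24.7 and 13.9 to 26.1 FPKM. Aldh6a1 (valine breakdown), Aldh5a1 (succinic semialdehyde of the GABA pathway) and the folate enzymes Aldh1l1 and Aldh1l2 also overlapped, with log2 differences from -0.18 to 0.13.

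The remaining aldehyde dehydrogenases, Aldh3a1, Aldh3b1, Aldh3b2 and Aldh16a1, overlapped as well, with log2 differences from 0.05 to 0.31. Aldh3b2 had the widest spread of all tested members, its highest value being 5.69 times its lowest. It was at 1.44, 3.73 and 8.17 FPKM in WT and at 4.64, 4.46 and 2.83 FPKM in KO. Its order over the libraries differed from that of most members, with the highest value in the WT female pool. Part of its coding sequence is shared with Aldh3b3, as given above.

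Aldehyde oxidases differed in level and in pattern. Aox3l1 was at 138, 111 and 57.9 FPKM in WT and at 65.7, 67.0 and 101 FPKM in KO, with a log2 difference of -0.33 ± 0.31 (SE). Its female pools ran opposite to its mixed and male pools. Aox3, an aldehyde oxidase prominent in mouse liver, was at 12.5 to 18.3 FPKM in WT and 14.8 to 28.5 FPKM in KO, and Aox1 at 0.657 to 1.14 FPKM in WT and 0.650 to 0.896 FPKM in KO. Both overlapped.

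Aox4, known in mice from the Harderian gland and skin, was under the level filter and was singled out after its values were seen. It was at 0.16, 0.19 and 0.11 FPKM in WT and at 0.78, 0.56 and 0.66 FPKM in KO. All KO values were above all WT values. At its coding length of 4008 nt these correspond to about 2, 11 and 5 fragments in the WT pools and 12, 30 and 31 in the KO pools. In a fit without the level filter, over 18948 genes, the log2 difference was 0.53 ± 0.089 (SE) with a limma adjusted p of 0.096, which did not pass.

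Carboxylesterases were represented mainly by Ces1d, a lipase of liver and fat that splits triacylglycerol. Ces1d was at 357, 430 and 342 FPKM in WT and at 381, 318 and 489 FPKM in KO, with a log2 difference of 0.06 ± 0.26 (SE) and no order between the genotypes. Of 7 fat cell markers, 1 was above 1 FPKM on average. Their sum was 5.02, 5.53 and 5.95 FPKM in WT and 5.79, 4.27 and 4.08 FPKM in KO. Adipoq lay between 0 and 0.549 FPKM, and Lep and Retn were listed at 0. The part of fat cells in the values of Ces1d was not tested. Ces1a was at 52.7, 41.3 and 45.3 FPKM in WT and at 71.0, 14.7 and 34.1 FPKM in KO. Its KO values were more scattered than its WT values, and the highest was 4.84 times the lowest. Ces1f and Ces1e lay at 33.7 to 39.2 and 17.3 to 24.0 FPKM in WT and at 27.7 to 45.01 and 16.6 to 23.8 FPKM in KO.

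The Ces2 genes were low. Ces2g was at 2.72, 2.27 and 1.41 FPKM in WT and at 2.85, 3.54 and 3.31 FPKM in KO. All KO values were above all WT values, but the mixed pools differed by little. The log2 difference was 0.45 ± 0.26 (SE) with a limma adjusted p of 0.74. Ces2b lay between 0.419 and 1.20 FPKM and Ces2e between 0.401 and 0.893 FPKM, both with overlap.

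Flavin-containing monooxygenases all had negative differences, in 5 of 5 tested genes, with log2 values from -0.28 to -0.10 and none past the threshold. Fmo6 was at 181, 164 and 115 FPKM in WT and at 162, 71.2 and 189 FPKM in KO, so the low value was the KO male pool. The Fmo6 difference was positive, 0.22, without that pool, and Fmo2 also had a small positive difference without it or without the WT male pool. Fmo1, a broad oxidizer of amines and sulfides, was at 59.9, 50.7 and 41.5 FPKM in WT and at 45.7, 33.7 and 45.9 FPKM in KO. Fmo2, the main form of mammalian lung, was at 57.2, 60.7 and 35.9 FPKM in WT and at 52.1, 39.3 and 48.8 FPKM in KO. Fmo5 ran from 12.9 to 33.9 FPKM and overlapped.

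Epoxide hydrolases had negative differences in 3 of 3 tested genes, none past the threshold, although that of Ephx1 was slightly positive without the KO mixed pool. Ephx1, the microsomal enzyme that opens epoxides of foreign compounds, was at 235, 273 and 231 FPKM in WT and at 153, 191 and 332 FPKM in KO. The KO values lay on both sides of the WT values, and the log2 difference was -0.20 ± 0.29 (SE). Ephx4 was at 56.1, 50.6 and 33.1 FPKM in WT and at 34.8, 28.4 and 52.3 FPKM in KO. Ephx2, the soluble enzyme that acts on fatty acid epoxides, was low at 1.85 to 3.33 FPKM.

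Carbonyl reductases had positive differences in 4 of 4 genes, none past the threshold, but the sign was not stable. Cbr1 was at -0.0024 with libraries rescaled to one sum and at -0.11 without the KO female pool, Cbr2 at -0.18 without the KO female and -0.14 without the WT female pool, and Cbr4 at -1.5e-05 without both mixed pools. Cbr3, a cytosolic carbonyl reductase next to Cbr1 in the genome, had the largest positive difference of the tested members. It was at 5.78, 7.78 and 6.79 FPKM in WT and at 11.0, 8.88 and 11.4 FPKM in KO, with every KO value above every WT value. The WT mean was 6.78 ± 0.997 FPKM and the KO mean 10.5 ± 1.37 (SD, n = 3 pools each), a log2 difference of 0.56 ± 0.25 (SE; 95% interval 0.020 to 1.097) with a limma adjusted p of 0.53. Cbr1, which reduces quinones and prostaglandins, was at 63.1, 74.1 and 68.2 FPKM in WT and at 63.8, 62.2 and 89.9 FPKM in KO. Cbr3 was 9.17, 10.5 and 9.96% of Cbr1 in the WT pools and 17.3, 14.3 and 12.7% in the KO pools, without overlap. Cbr4, a mitochondrial enzyme of fatty acid synthesis, was at 11.6 to 14.2 FPKM in WT and 12.3 to 15.3 FPKM in KO.

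The direction of the difference varied between the kinds of pool, and no kind of pool was replicated within a genotype. KO exceeded WT for 20 of 43 members between the mixed pools (background 27.6%), for 12 between the male pools (background 23.8%) and for 35 between the female pools (background 87.3%). The medians over members were -0.10, -0.30 and 0.39 on the log2 scale, beside -0.25, -0.20 and 0.48 over all genes. The median of the members and that of all genes thus had the same sign in each kind of pool. KO was lower in the mixed and male pools and higher in the female pools for 17 of 43 members (39.5%), against 55.3% of all genes.

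With each library centred on its median, KO exceeded WT for 28 members between the mixed pools (background 51.2%), for 18 between the male pools (53.4%) and for 13 between the female pools (39.7%). The opposite signs between the female and the other pools then remained for 4 of 43 members (9.30%), against 11.4% of all genes. Centring moves the log2 difference between the genotypes by the same small amount for every gene, so it could not turn differences of this size. Centred log2 differences were -0.77 for Adh1 and -0.76 for Aldh1a7, with limma adjusted p of 0.105 and 0.138. Those of Cbr3, Ces2g and Aldh7a1 were 0.53, 0.42 and 0.23, with limma adjusted p of 0.306, 0.286 and 0.685.

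**Figure D4:**
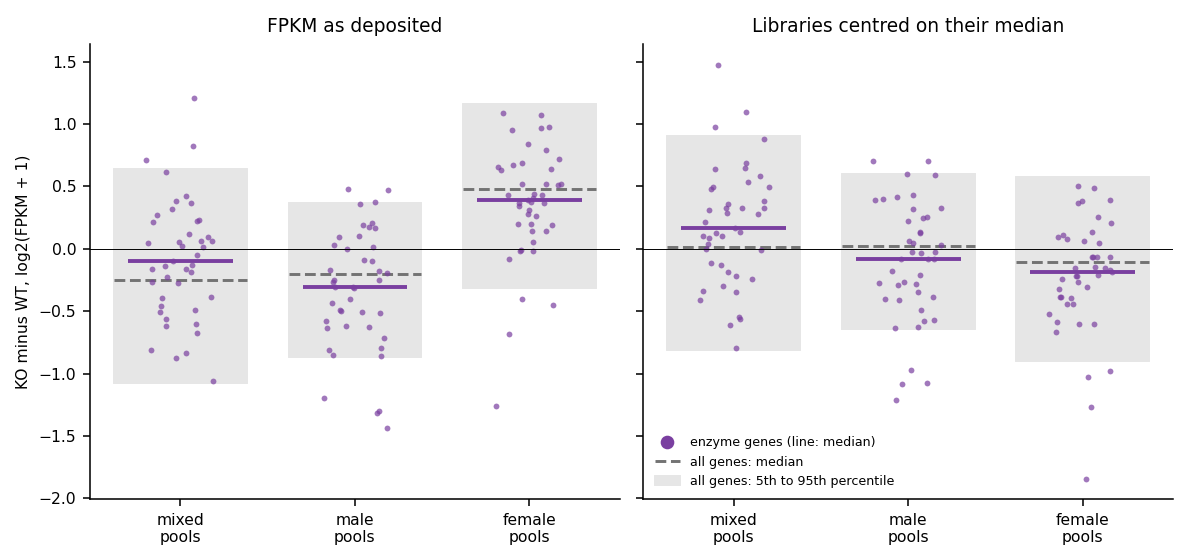
Log2 difference KO minus WT within each kind of pool for the 43 tested members (points), as deposited on the left and with libraries centred on their median on the right. Solid lines are the members' medians (-0.10, -0.30 and 0.39 on the left), dashed lines those of all 15067 tested genes (-0.25, -0.20 and 0.48) and grey boxes the 5th to 95th percentile of all genes.

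Summed over the 63 members, FPKM was 5591, 6160 and 4138 in the WT pools and 4251, 4477 and 6777 in the KO pools. The WT mean was 5297 ± 1043 and the KO mean 5168 ± 1398 (SD, n = 3 pools each), with overlap. The KO sum was 76.02, 72.7 and 164% of its WT counterpart. Sums of all 7 families overlapped between the genotypes. The KO mean was 71.8% of WT for Adh, 83.5% for Aox, 88.95% for Aldh, 89.0% for Fmo, 89.8% for Ephx, 103% for Ces and 106% for Cbr. In the male and female pools Adh was the lowest family (52.6 and 106%) and Cbr the highest (80.8 and 191%). In the mixed pools Aox was the lowest (60.7%) and Ces the highest (108%).

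The sums of several cell markers had a like order by pool. The summed FPKM of 12 sustentacular markers was 13279, 14229 and 10833 in WT and 10369, 8531 and 14973 in KO, so KO stood at 78.1, 59.96 and 138% of WT. Of these markers 6 differed positively and 6 negatively, and none passed. KO sums of 8 immature neuron markers were 64.0, 76.1 and 168% of WT and those of 9 markers of ciliated cells 86.1, 91.5 and 173%, also lower in the mixed and male pools and higher in the female pools. Their part in the members' values was not tested.

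Markers of glands and secretions differed positively for 10 of 10 tested genes, none past the threshold. Their sum, 27723, 29882 and 64453 FPKM in WT and 50923, 50108 and 36614 FPKM in KO, was ordered by 1 gene, the odorant binding protein gene Obp1a. Obp1a was at 7458, 4869 and 47418 FPKM in WT and at 28709, 22778 and 3038 FPKM in KO. The other 9 markers, split off after the values were seen, summed to 20266, 25013 and 17036 FPKM in WT and 22214, 27331 and 33575 FPKM in KO, or 110, 109 and 197% of WT. Without Obp1a the WT female pool was thus the lowest and the KO female pool the highest library, as for the members' sum.

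Other lists of cell markers went in different directions. Mature neuron markers had negative differences in 14 of 14 genes, with a median log2 difference of -0.79 and 1 past the threshold (Kirrel2). At an unadjusted limma p of 0.05, 10 of the 14 were lower in the KO, against 4.62% of all genes. The KO sum of these markers was 37.5, 40.3 and 83.6% of WT. In the values as deposited the KO female pool was again the nearest to WT, as for Adh1 and Aldh1a7. KO exceeded WT between the female pools for 87.3% of all genes, so this order is not particular to these genes. Differences were positive for 6 of 6 horizontal basal cell markers (median 0.74) and 7 of 7 tested macrophage markers (median 0.66), none past the threshold. They were positive for 6 of 6 endothelial markers (median 0.48) and negative for 5 of 5 erythroid markers (median -0.58), none past the threshold. Positive differences were found for 4 of 7 fibroblast, 2 of 8 ensheathing and Schwann cell and 1 of 2 tested muscle markers, also with none past the threshold. The part of these cells in the values of Adh1, Aldh1a7 and the other members was not tested.

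**Figure D5:**
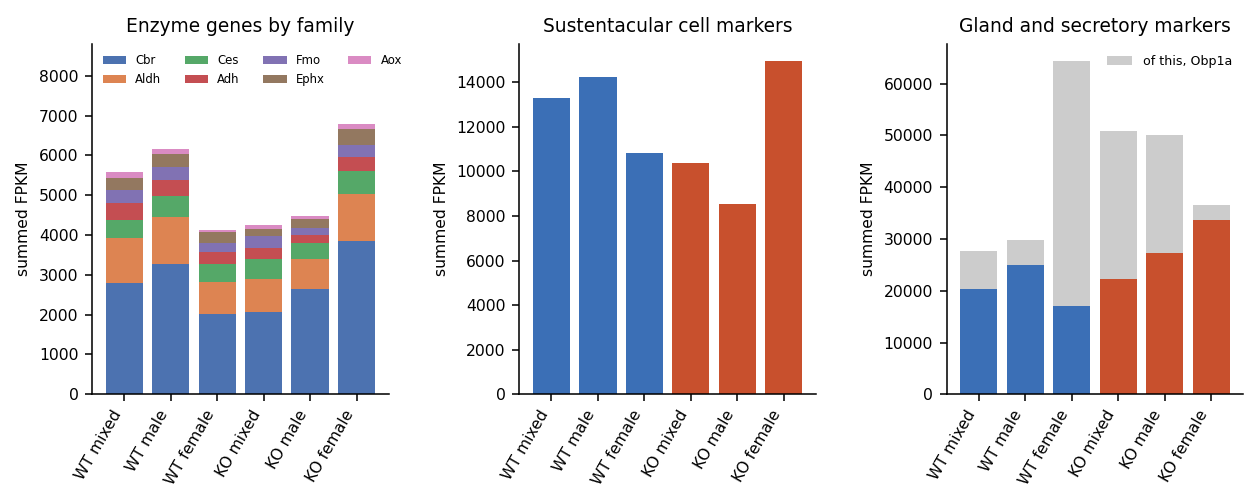
Summed FPKM in each of the 6 libraries: the 7 enzyme families stacked (left), the sustentacular markers (middle) and the gland and secretory markers (right). The stacked enzyme bar is highest in the KO female pool (6777) and lowest in the WT female pool (4138), and so is the gland and secretory sum without Obp1a (33575 and 17036), whose share of each bar is drawn in grey.

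Set against the sustentacular marker sum of the same library, the members together were 42.1, 43.3 and 38.2% in WT and 41.0, 52.5 and 45.3% in KO, with overlap. Adh1 alone was 2.19, 1.97 and 2.001% of that sum in WT and 1.60, 1.32 and 1.36% in KO, and did not overlap. Aldh1a7 was 0.489, 0.597 and 0.546% in WT and 0.337, 0.397 and 0.390% in KO, also without overlap. Aldh1a1 overlapped on the same scale. Relative to that sum, the KO female pool was no longer close to the WT female pool for Adh1 and Aldh1a7. Much of the sum comes from enzyme genes themselves, among them Cyp2a5 and Ugt2a1, which are also in the lists described below.

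Across the 6 libraries the tested members varied by a median of 1.93 times from lowest to highest, beside 2.07 times for all genes. The lowest value fell in the WT female pool for 15 of 43 members and in the KO male pool for another 15, beside 55.6 and 16.4% of all genes. The members' share was thus below that of all genes in the WT female pool and above it in the KO male pool. The highest value fell in the KO female pool for 17 of 43 members and in the WT mixed pool for 9, beside 31.1 and 45.3% of all genes.

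Sex was read from the female share of the pools (0, 50 or 100%) beside genotype. No member passed an adjusted p of 0.05 for the female share in limma, against 0.0996% of all genes, and none was past an unadjusted p of 0.05, against 0.743%. The smallest p was that of Ces1a, with a log2 difference of 0.65 ± 0.43 (SE) from all male to all female and an adjusted p of 1. Whether the KO difference itself changed with the female share was tested by their product, and 0 of 43 members passed, against 0.126% of all genes.

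At an unadjusted p of 0.05 the product term held 3 members (6.98%), against 4.15% of all genes, all positive (background 3.73%). These were Fmo6 at 1.91 ± 0.67, Ephx4 at 1.45 ± 0.64 and Aox3l1 at 1.51 ± 0.67 on the log2 scale (SE), each with a limma adjusted p of 0.68. A positive value means that KO lay higher against WT as the female share rose. The median product term was 0.81 over the members and 0.71 over all genes, and 0.005 and -0.10 with each library centred on its median.

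Enzymes that act before and after these families were counted in lists chosen beside the members. Of 14 nasal cytochrome P450 genes and their electron donors, which oxidize foreign compounds first, none passed in either direction, with a median log2 difference of -0.15. Cyp2a5, the most abundant, was at 5274, 5403 and 4551 FPKM in WT and at 4042, 3585 and 5840 FPKM in KO. Of 27 conjugating enzymes, which attach glutathione, sulfate or glucuronic acid, none passed in the values as deposited, with a median of -0.13. Gsto1 of this list, described below, passed with each library centred on its median. Ugt2a1, an olfactory glucuronosyltransferase, was at 1881, 2096 and 1722 FPKM in WT and at 1382, 1168 and 1842 FPKM in KO. The KO sums were 71.1, 60.9 and 132% of WT for the P450 list and 73.5, 60.01 and 129% for the conjugation list. Both were thus lower than WT in the mixed and male pools and higher in the female pools, like the members' sum. These lists share Cyp2a5, Cyp2g1, Cyp1a2 and Ugt2a1 with the sustentacular markers.

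Of 20 retinoid genes none passed, with a median of 0.04. Crabp1, which binds retinoic acid in the cytosol, was at 101, 79.7 and 70.4 FPKM in WT and at 110.4, 108 and 183 FPKM in KO, higher in every KO pool by a log2 difference of 0.64 with a limma adjusted p of 0.44. Of 7 genes of molybdenum cofactor synthesis and its other users, which the aldehyde oxidases depend on, none passed, with a median of -0.01. Xdh, the xanthine dehydrogenase that is the closest relative of the aldehyde oxidases, overlapped at 13.3 to 22.2 FPKM in WT and 17.1 to 26.6 FPKM in KO. Of 11 aldo-keto and other carbonyl reductases none passed, with a median of 0.03.

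Of 16 genes of the oxidative stress response none passed, with a median of -0.02. Nfe2l2, the transcription factor of that response, overlapped at 62.8 to 105 FPKM in WT and 59.7 to 87.3 FPKM in KO. Nqo1, a quinone reductase among its targets and singled out after its values were seen, was at 174, 83.2 and 63.7 FPKM in WT and at 56.3, 18.5 and 57.4 FPKM in KO. Like Adh1 and Aldh1a7 it was lower in every KO pool, with the female pools closest in the values as deposited. The log2 difference of Nqo1 was -1.29 ± 0.43 (SE) with a limma adjusted p of 0.27. Gsto1, a glutathione transferase of the omega class also singled out after its values were seen, was at 28.0, 40.4 and 22.5 FPKM in WT and at 69.3, 54.5 and 76.8 FPKM in KO. The log2 difference of Gsto1 was 1.14 with a limma adjusted p of 0.065. With each library centred on its median the limma adjusted p was 0.036, under the threshold, in a setting where 254 of all genes passed.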

How the data were processed

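RNA of pooled olfactory epithelia was sequenced after normalization with duplex-specific nuclease, per the labels' protocols. The authors deposited 1 table of FPKM values, made with TopHat2 2.0.7, Bowtie, Cufflinks 1.3.3 and Cuffdiff on the mouse build mm9, per the submitters' processing notes. The table itself does not name the unit, which was taken from its header, these programs and the values. For settings and annotation, the sources used here give nothing. The column of each genotype that names no sex was taken as its mixed pool, because no other library remained. For 221 symbols on several of the 22310 rows the most abundant row was used, and 429 rows were left out.

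A mean of 0.5 FPKM was the minimum for testing (15067 genes). Values were compared as log2(FPKM + 1), which understates changes of low genes, with limma 3.58.1 (R 4.3.3), a mean-dependent prior variance, Benjamini-Hochberg adjustment over all tested genes and a threshold of 0.05. The sex fits added the female share of the pool, and then its product with genotype. Depth was estimated with GRCm38 gene lengths from the FPKM worth 1 fragment in 2142 genes, and is approximate. Promoter sequences come from RefSeq and coding sequences from GENCODE, both on GRCm38. The fit was tested on simulated data.

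The members and the lists were chosen with earlier results of these data known. The text names, for each family, the 4 tested members of highest mean, the 2 of smallest genotype p among those reaching a mean of 1 FPKM, and any past the threshold, and for a related list up to 3 genes of highest mean. Other tested members stand by range, 1 member is not reported here by name, and Aldh7a1, Aldh9a1, Aldh3b2, Aox4, Nqo1 and Gsto1 were added once their values were known. Alternatives changed the scaling, the low-value filter, the pseudocount, the prior variance, the handling of repeated symbols and the terms for pool and sex, or left out libraries.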

Additional observations from a re-analysis of the deposited data

How the results depend on the processing

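In each of the 20 genotype settings run, and in the settings run for the female share and for its product with genotype, 0 tested members passed an adjusted p of 0.05. The smallest adjusted p of a member was 0.322 as reported and ran from 0.087 (without the WT female pool) to 0.763 (without the KO male pool). Over all genes the count of 126 was 272 with libraries rescaled to one sum, 254 with libraries centred on their median, 348 without both mixed pools, 289 with a term for the mixed pools, 209 with the female share as a covariate and 30 without the filter. It ran from 40 to 542 with 1 library left out. Rescaling to one sum reversed Ces1e (-0.024) and Cbr1 (-0.0024). Leaving out both mixed pools reversed Adh5 (0.0035), Aox3l1 (0.039), Ces1f (0.13), Ces1e (-0.069), Ephx1 (0.0011) and Cbr4 (-1.5e-05). With each library left out in turn, 10 of 27 named members changed sign. Their log2 differences ran from -0.0064 to 0.23 for Adh7, -0.11 to 0.20 for Ces1d, -1.01 to 0.091 for Ces1a, -0.17 to 0.17 for Ces1f, -0.085 to 0.17 for Ces1e, -0.48 to 0.22 for Fmo6, -0.34 to 0.034 for Fmo2, -0.52 to 0.034 for Ephx1, -0.18 to 0.28 for Cbr2 and -0.11 to 0.15 for Cbr1. The cause was not tested. The replicate numbers name the kind of pool. Deviations from the genotype means correlated at 0.36 for the mixed, 0.21 for the male and -0.09 for the female pools, so the pools are not shown to pair. With the replicate block 0 members were called (smallest adjusted p 0.302), and 440 genes in all. Depth in the mixed pools limits members under about 1 FPKM.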
